A study of Mus musculus with 6 samples.

Results

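Connexin and pannexin genes were followed in neurons of the mouse cortex that had left the cell cycle, taken at stage E14.5, in mutants lacking Rp58 and in controls. The 7 genes were Gja1, Gjb2, Gjb6, Gjc1, Gjd2, Panx1 and Panx2, of 34289 genes summed from the deposited transcript tables. They were chosen by the genotype difference of Gja1, whose level in these libraries was known to be higher in the mutants, with other members of its family listed beside it, so their differences between genotypes are given as descriptions and without p-values, and whether a member passed the threshold of a fit describes that fit and supports nothing. The mutant group (RP58-/-) and the control group (RP58+/+) held 3 libraries each. Rp58, now Zbtb18, encodes a zinc finger repressor that cortical neurons need to mature. The labels name no Cre driver, no sorting method and no pooling, and nothing in them says that separate embryos gave the 3 libraries of each genotype, so p-values measure the spread between these libraries, which may be technical in part.

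Connexins are channel proteins. They assemble into hemichannels, which dock across the gap between neighbouring cells and form gap junctions that pass ions and small metabolites. Pannexins have a similar fold but act mainly as channels of a single membrane and are known for the release of ATP. In embryonic cortex, connexins couple radial glia, serve as adhesion contacts for migrating neurons, and let young neurons exchange signals before chemical synapses form.

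Total estimated counts lay between 53044306 and 56472475 in the mutant libraries and between 34645505 and 75892649 in the control libraries. The libraries were of 2 technical types. In mutants 1 and 2 and control 1, every long transcript exceeded its effective length by the same number of bases, the mark of a preset fragment length (fixed-length libraries). In mutant 3 and controls 2 and 3 the excess was 133.7 to 139.2 bases (estimated-length libraries). One transcript took 1.76% to 2.36% of all TPM (the authors' scaling of transcripts by effective length and total) in the fixed-length libraries and 48.7% to 53.1% in the estimated-length libraries, so TPM values are compared only within a library. Levels across libraries are given as CPM, counts scaled to normalized library size. Zbtb18 was at 46.7, 45.7 and 538 CPM in mutants 1, 2 and 3, against 1902, 1587 and 1697 CPM in controls 1, 2 and 3. Mutant 3 thus kept 32.8% of the level of its own library type's controls, against 2.45% and 2.40% in mutants 1 and 2. Its fitted log2 difference was -3.48 ± 0.81 (SE, edgeR quasi-likelihood test, adjusted p = 0.0337). It did not pass without a term for library type (adjusted p = 0.400) or when control 3, mutant 1 or mutant 2 was left out, and it was -5.36 without mutant 3 and -1.59 without control 1.

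Gja1, which encodes Cx43, the main connexin of radial glia and astrocytes, was among the 3 most abundant members in the mutants and the least abundant of the 5 readily detected members in the controls. It was measured at 96.4, 78.5 and 57.2 CPM in mutants 1, 2 and 3, against 2.07, 0.849 and 0.758 CPM in controls 1, 2 and 3. Every mutant library lay far above every control library. The mean was 77.3 ± 19.6 CPM in the mutants and 1.22 ± 0.731 CPM in the controls (SD, n = 3 each). In counts this was 4994, 4194 and 2825 reads in the mutants, against 65, 57 and 32 reads in the controls. The log2 fold change in a fit with a term for library type was 5.75 ± 0.20 (SE), or 53.7-fold. Without that term it was 5.95 ± 0.53. In bulk libraries such as these, more cells with a transcript and more transcript per cell cannot be told apart. The deposited tables list 1 transcript of Gja1 (Gja1-201, 3105 bases), so no shift between isoforms could be measured.

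The size of the Gja1 difference can be read separately in each library type. Mutants 1 and 2 lay 46.6-fold and 38.0-fold above control 1, the fixed-length control. Mutant 3 lay 71.2-fold above the mean of controls 2 and 3. The fitted effects were 5.38 ± 0.22 in fixed-length and 6.07 ± 0.18 in estimated-length libraries on the log2 scale, with the spread pooled over both types, since 1 genotype of each type rests on a lone library. The effect was larger by 0.70 ± 0.26 in the estimated-length libraries, and the test of this difference did not pass (edgeR quasi-likelihood interaction test, adjusted p = 0.636 with Benjamini-Hochberg adjustment). Of all 16985 genes tested, 0.153% passed this interaction test, and none of the 5 tested members did.

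**Figure D1:**
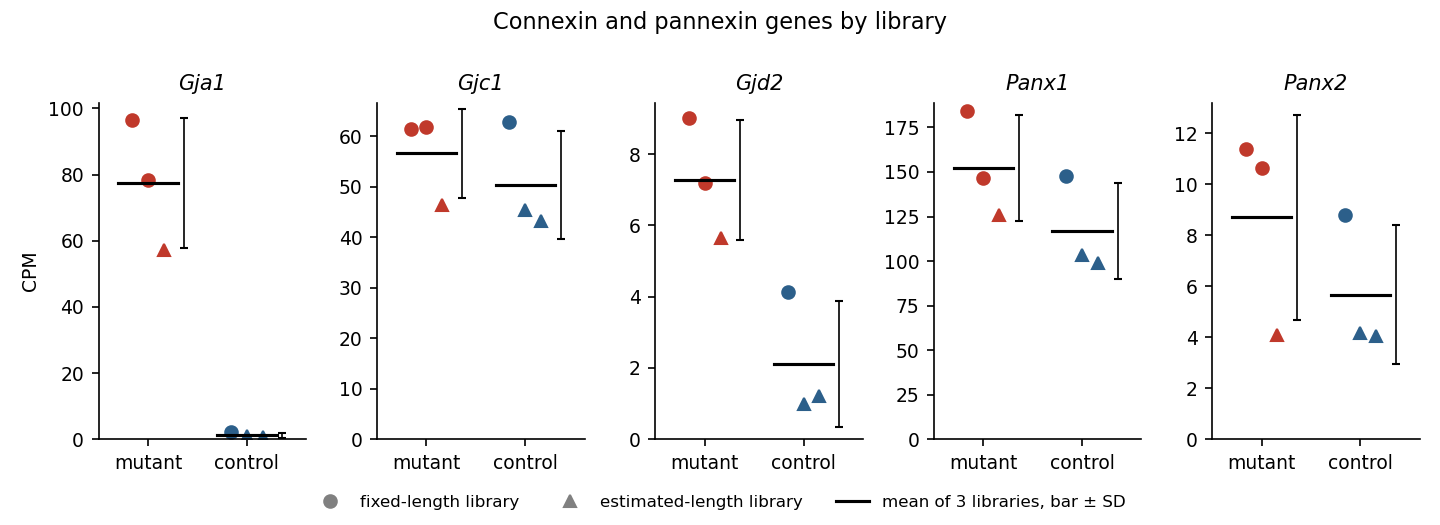
CPM of the 5 members with more than a few reads, in 3 mutant (red) and 3 control (blue) libraries; circles are fixed-length and triangles estimated-length libraries, horizontal lines are means and vertical bars SD. For Gja1 and Gjd2 the genotypes do not overlap, at 57.2 to 96.4 against 0.758 to 2.07 CPM and at 5.65 to 9.01 against 0.983 to 4.13 CPM; for Gjc1, Panx1 and Panx2 they do.

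Because Gja1 and Gjd2 were the members that differed between genotypes, the start regions of both are shown. Each window spans 250 bases before to 50 bases after the gene's start, as given by RefSeq on GRCm38.p6. The Gja1 window lies at chr10:56377050-56377349 on the plus strand and the Gjd2 window at chr2:114013570-114013869 on the minus strand. The letters searched were ACATCTG, the core of the site that RP58 is known to bind, and TGACTCA, the site of AP-1 factors, on both strands; they do not overlap one another. Capitals mark a match.
Gja1: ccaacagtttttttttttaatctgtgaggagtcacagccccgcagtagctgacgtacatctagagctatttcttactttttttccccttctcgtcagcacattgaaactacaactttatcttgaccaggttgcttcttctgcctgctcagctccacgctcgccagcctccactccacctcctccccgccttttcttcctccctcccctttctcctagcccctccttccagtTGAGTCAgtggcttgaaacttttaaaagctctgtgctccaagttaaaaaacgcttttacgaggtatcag
Gjd2: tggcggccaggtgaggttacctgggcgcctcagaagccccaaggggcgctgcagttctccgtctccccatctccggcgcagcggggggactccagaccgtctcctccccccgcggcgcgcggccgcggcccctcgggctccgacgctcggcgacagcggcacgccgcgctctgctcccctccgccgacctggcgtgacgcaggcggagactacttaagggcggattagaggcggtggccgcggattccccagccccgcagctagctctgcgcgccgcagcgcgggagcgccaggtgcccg
The Gja1 window held TGACTCA once, read on the opposite strand from 19 bases before the start, and 5.2% of the 32851 windows of this table held it. ACATCTG was in neither window, and it was in 4.43% of all windows. In base composition the windows differed, with 47.7% G and C for Gja1 and 75.0% for Gjd2. Of the other members, Gjb2, Gjb6 and Panx1 have windows in the table, and none of these held either set of letters.

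Gjd2 encodes Cx36, the connexin of electrical synapses between neurons. It was the other member above the controls. Its level was 9.01, 7.18 and 5.65 CPM in mutants 1, 2 and 3, against 4.13, 0.983 and 1.21 CPM in controls 1, 2 and 3. The lowest mutant lay above the highest control. On the log2 scale the fold change was 1.64 ± 0.33, or 3.11-fold. In each library type a lone library stood for mutant or control, and the test of a difference between types did not pass. The fitted size changed with the libraries used. Within the fixed-length libraries it was 0.96 ± 0.29 and within the estimated-length libraries 2.33 ± 0.27, a difference of 1.37 ± 0.38 (edgeR interaction test, adjusted p = 0.471). Gjd2 passed in the fit with the library type term but not without that term, and it also failed when control 2, control 3, mutant 1 or mutant 3 was left out. Leaving out control 1 gave 2.36 and leaving out mutant 3 gave 0.96 on the log2 scale.

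Gjc1 encodes Cx45, a connexin widely used in the embryonic brain, and it made up most of the connexin transcripts of control neurons. It was at 61.5, 61.8 and 46.4 CPM in mutants 1, 2 and 3, against 62.7, 45.3 and 43.2 CPM in controls 1, 2 and 3. In both genotypes the fixed-length libraries were the higher ones, and the genotypes overlapped. Its log2 fold change was 0.02 ± 0.07 and did not pass, and its sign was negative under another scaling (RLE) and within the fixed-length libraries. The split among its 5 listed transcripts was less even. Gjc1-201 held 81.4%, 68.1% and 73.3% of the gene's counts in mutants 1, 2 and 3, against 91.3%, 77.0% and 67.0% in controls 1, 2 and 3. Gjc1-202, a coding transcript of similar length, held 12.5% (95% Wilson interval 11.4% to 13.7%) in mutant 1 and 24.5% (23.0% to 25.9%) in mutant 2, against 0.101% (0.0278% to 0.369%) in control 1. In the estimated-length libraries it held 5.93% (5.04% to 6.97%) in mutant 3, against 4.40% (3.73% to 5.19%) in control 2 and 5.71% (4.73% to 6.87%) in control 3. The mutants of the fixed-length type thus stood apart, and mutant 3 did not stand apart from its controls. These intervals cover counting error only, not the uncertainty with which reads were divided among overlapping transcripts.

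Panx1, the pannexin of regulated ATP release, was the most abundant member in every library. It was at 184, 146 and 126 CPM in mutants 1, 2 and 3, against 148, 104 and 99.1 CPM in controls 1, 2 and 3. Mutant 2 and mutant 3 lay below control 1, so the genotypes overlapped. The log2 fold change was 0.24 ± 0.11 and did not pass, with 0.16 ± 0.17 in fixed-length and 0.32 ± 0.16 in estimated-length libraries. It passed in 1 of 14 alternative fits, the one without mutant 2, where the value was 0.32. Panx2, a pannexin of the brain, was at 11.4, 10.6 and 4.07 CPM in mutants 1, 2 and 3, against 8.81, 4.17 and 4.03 CPM in controls 1, 2 and 3. The log2 fold change was 0.16 ± 0.16 and did not pass, and it was -0.01 ± 0.21 within the estimated-length libraries. Panx1-201, annotated as subject to nonsense-mediated decay, held 12.6%, 16.6% and 6.14% of Panx1 counts in mutants 1, 2 and 3. In controls 1, 2 and 3 it held 17.4%, 10.7% and 15.9%. Over all libraries the genotypes overlapped, but within each library type the mutants lay below the controls. The 95% Wilson intervals of mutant 2 (15.8% to 17.4%) and control 1 (16.3% to 18.5%) overlapped. Those of mutant 3 (5.57% to 6.76%) and control 2 (9.98% to 11.4%) did not. Again the intervals cover counting error only.

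Gjb2 and Gjb6 encode Cx26 and Cx30, connexins that accompany Cx43 in mature astrocytes and, for Cx26, in the developing cortex. Neither was detectable above a few reads. Gjb2 had 0, 0 and 2 reads in mutants 1, 2 and 3, against 0, 0 and 1 read in controls 1, 2 and 3. Gjb6 had 0, 0 and 2 reads in the mutants, against 0 in each control. All reads were in estimated-length libraries. A limit of 3 counts corresponds to 0.0561 to 0.0607 CPM in the mutant libraries and 0.0447 to 0.0954 CPM in the control libraries, and neither gene passed the filter on low counts.

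In the fit with the library type term, 2 of the 5 tested members were called at adjusted p under 0.05, both higher in the mutants, where 14.9% of all tested genes were called, 7.92% higher and 7.01% lower. Without the term, 1 member, Gja1, was called, where 2.36% of all genes were, 1.59% higher and 0.765% lower. Within the fixed-length libraries 1 member (Gja1) was called, where 9.46% of all genes were, and within the estimated-length libraries 2 were (Gja1 and Gjd2), where 7.92% were. The genotypes did not overlap for 2 of the 5 tested members, where 15.4% of all tested genes did not overlap. Since the contrast chose the members, nothing is read from these counts.

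**Figure D2:**
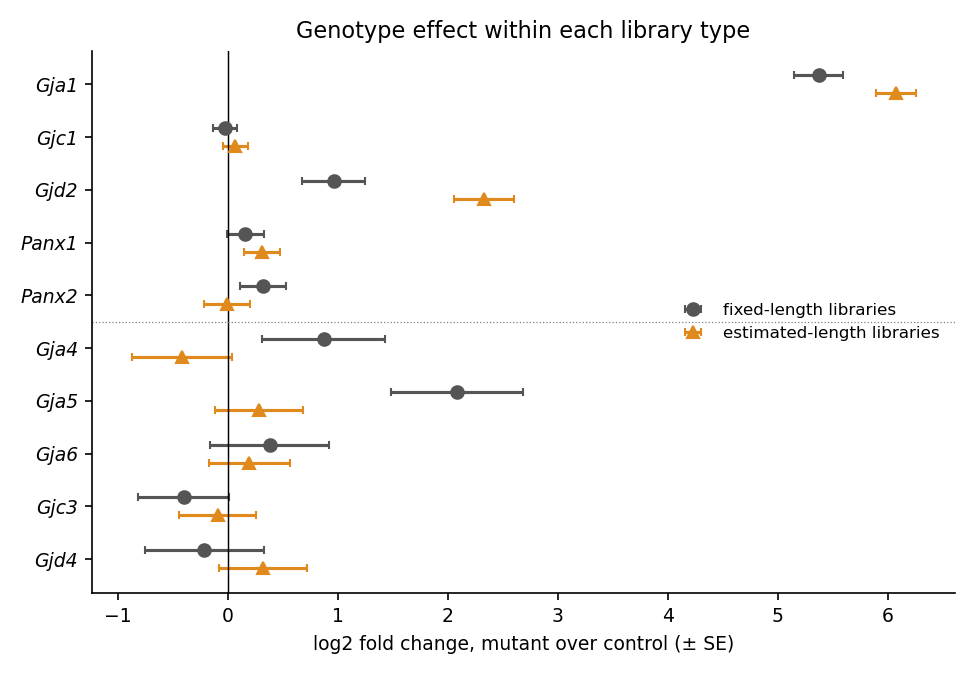
Log2 fold changes, mutant over control, with SE, for the 5 tested members (above the dotted line) and the 5 other tested connexins (below it), in fixed-length (grey circles) and estimated-length (orange triangles) libraries. Gja1 lies at 5.38 and 6.07, Gjd2 at 0.96 and 2.33, and Gjc1 near 0 in both.

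Within each library the order of the members per unit length could be read from TPM. In the mutants it was Panx1, Gjc1, Gja1 and then Panx2 and Gjd2, which swapped places in mutant 3. In all 3 controls it was Panx1, Gjc1, Panx2, Gjd2 and Gja1. Gja1 stood at 92.2%, 75.3% and 76.7% of the TPM of Gjc1 in mutants 1, 2 and 3, against 1.95%, 1.15% and 1.07% in controls 1, 2 and 3. Gjd2 stood at 72.1%, 63.3% and 103% of the TPM of Panx2 in the mutants, so these neighbours in the order were not separated there, against 24.8%, 21.5% and 30.4% in the controls. These percentages rest in part on few counts of a short transcript, Panx2-201 (355 bases). With 12.1 counts it held 4.65 of the 8.10 TPM of Panx2 in control 1. In mutant 3, 8.21 counts gave it 0.231 of 0.618 TPM.

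The makeup of the connexin transcripts differed accordingly. The tables list 20 connexin genes. Gja1 held 45.3%, 40.7% and 38.6% of their summed TPM in mutants 1, 2 and 3, against 1.81%, 0.990% and 0.910% in controls 1, 2 and 3. Gjc1 held 49.1%, 54.1% and 50.4% in the mutants, against 92.9%, 86.0% and 85.3% in the controls. Gjd2 held 4.60%, 4.05% and 4.13% in the mutants, against 3.93%, 1.24% and 1.57% in the controls. These shares restate the Gja1 difference beside the Gjc1 level and are no separate evidence of it.

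**Figure D3:**
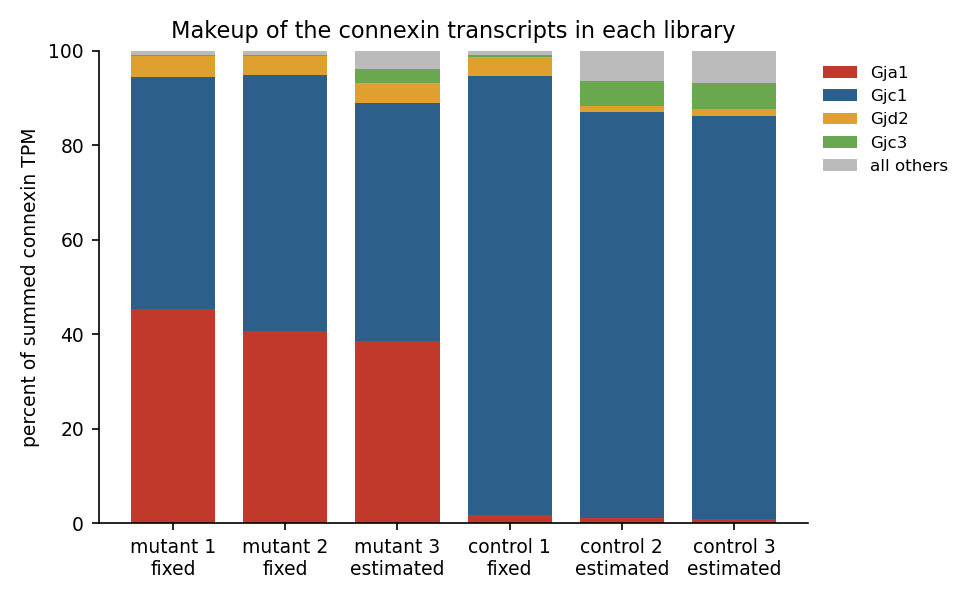
Share of each connexin gene in the summed connexin TPM of a library, in percent, with mutant libraries on the left and control libraries on the right. Gja1 (red) takes 38.6% to 45.3% in the mutants and 0.910% to 1.81% in the controls, and Gjc1 (blue) takes 49.1% to 54.1% and 85.3% to 92.9%.

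The rest of the family was scarce. Of 16 other connexin and pannexin genes, 5 passed the filter on low counts (Gja4, Gja5, Gja6, Gjc3 and Gjd4), none was called in either fit, and 14 stayed under 1 CPM in every library. Their median log2 fold change was 0.16, against -0.00081 over all tested genes. Gjc3, a connexin of myelinating glia, was at 0.405, 0.730 and 4.94 CPM in mutants 1, 2 and 3, against 0.763, 5.28 and 5.24 CPM in controls 1, 2 and 3. It followed library type, not genotype (log2 fold change -0.22 ± 0.26, edgeR quasi-likelihood test, adjusted p = 0.637). Gja6 was at 0.116, 0.0748 and 1.03 CPM in mutants 1, 2 and 3, against 0.0636, 0.893 and 0.900 CPM in controls 1, 2 and 3, again in step with library type (0.24 ± 0.30, adjusted p = 0.644). Its sign turned to -0.56 without the library type term.

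Gap junctions are only one kind of large-pore channel. Of 10 CALHM and LRRC8 genes in the tables, 7 were tested, 1 was called higher in the mutants and none lower. Over all tested genes 14.9% were called, 7.92% higher and 7.01% lower. The count of channel genes lies near that share, so nothing is read from it. The one called was Lrrc8c, a subunit of the volume-regulated anion channel. Its level was 11.0, 10.1 and 9.84 CPM in mutants 1, 2 and 3, against 5.40, 6.73 and 4.97 CPM in controls 1, 2 and 3 (log2 fold change 0.85 ± 0.18, edgeR adjusted p = 0.0241). All mutants lay above all controls. The call was lost without the library type term (adjusted p = 0.168) and when control 1, control 3, mutant 1 or mutant 3 was left out. The median of the 7 genes was 0.18.

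Among 14 genes whose proteins bind, traffic or turn over connexins, 2 were called higher and none lower, with a median log2 fold change of 0.08. This count too lies near the 14.9% called over all tested genes, and nothing is read from it. Cav1, the caveolin that binds Cx43 at the membrane, was called at a low level. It was at 1.14, 0.954 and 0.952 CPM in mutants 1, 2 and 3, against 0.382, 0.283 and 0.355 CPM in controls 1, 2 and 3 (1.42 ± 0.27, edgeR adjusted p = 0.0154). Nedd4, a ubiquitin ligase that promotes removal of Cx43 from junctions, was at 860, 773 and 856 CPM in mutants 1, 2 and 3, against 605, 707 and 676 CPM in controls 1, 2 and 3 (0.37 ± 0.09, edgeR adjusted p = 0.0388). For both the genotypes did not overlap. Both calls were lost without the library type term (adjusted p = 0.293 and 0.955). The call of Cav1 was also lost without control 1, 2 or 3 or mutant 3, and that of Nedd4 in each fit with 1 library left out other than the one without mutant 2. The scaffold genes Tjp1 and Tjp3 were not called.

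ATP that leaves through such channels acts on purinergic receptors and is broken down to adenosine by enzymes on the cell surface. Of 22 genes of this system, 14 were tested, 1 was called higher and 2 lower, and their median log2 fold change was 0.02. The shares called over all tested genes were 7.92% higher and 7.01% lower. Entpd1 encodes CD39, which hydrolyses extracellular ATP. It was at 8.36, 9.95 and 8.30 CPM in mutants 1, 2 and 3, against 0.286, 1.41 and 1.68 CPM in controls 1, 2 and 3. All mutants lay above all controls, and the log2 fold change was 3.33 ± 0.52 (edgeR adjusted p = 0.00739). It was 2.42 without control 1 and 4.82 without mutant 3, and the call was lost without the library type term (adjusted p = 0.110).

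Adora1 encodes the A1 receptor, through which adenosine damps neuronal activity. It was at 10.6, 8.29 and 6.97 CPM in mutants 1, 2 and 3, against 47.5, 30.6 and 33.1 CPM in controls 1, 2 and 3. Every mutant lay below every control. It fell by 2.26 ± 0.13 on the log2 scale (edgeR adjusted p = 0.000107, and 0.02 without the library type term), and the call was kept in all 14 alternative fits. P2rx2, an ATP-gated cation channel, was at 0.907, 0.692 and 0.526 CPM in mutants 1, 2 and 3, against 2.42, 1.38 and 0.758 CPM in controls 1, 2 and 3. Here mutant 1 lay above control 3, so the genotypes overlapped. The log2 fold change was -1.28 ± 0.33 (edgeR adjusted p = 0.0444), a call lost whenever 1 library was left out, other than control 3. It was also lost without normalization factors (adjusted p = 0.0548) and without the library type term (0.775).

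**Figure D4:**
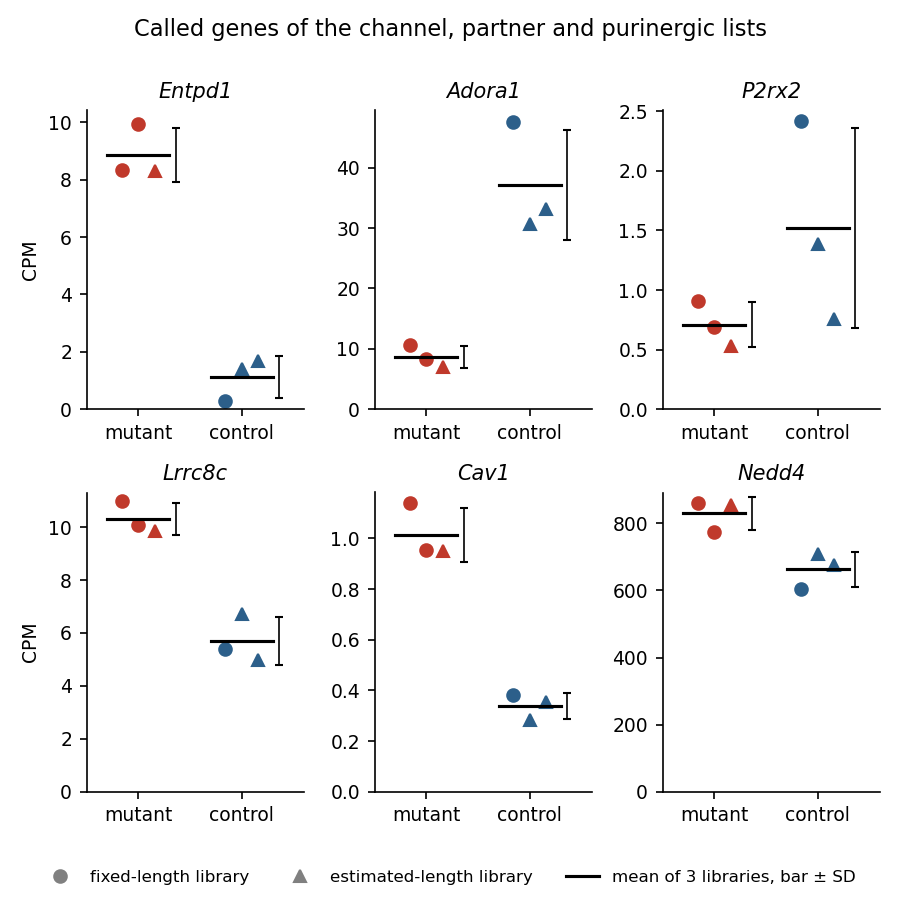
CPM of the called genes of the channel, partner and purinergic lists in mutant (red) and control (blue) libraries; circles are fixed-length and triangles estimated-length libraries, lines are means and bars SD. Entpd1 averaged 8.87 against 1.13 CPM and Adora1 8.63 against 37.1 CPM, and P2rx2 is the one of the 6 whose genotypes overlap.

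Gja1 is a gene of radial glia and astrocytes, so their markers are set beside it. Of 10 radial glia markers, 3 were higher in the mutants (Hes1, Pax6 and Sox2) and 4 lower (Ptprz1, Slc1a3, Fabp7 and Vim), and their median log2 fold change was -0.12. Among all tested genes 7.92% were called higher and 7.01% lower. Hes1, a Notch target, was at 6.33, 6.86 and 8.40 CPM in mutants 1, 2 and 3, against 0.223, 0.179 and 0.261 CPM in controls 1, 2 and 3 (4.90 ± 0.24, edgeR adjusted p = 7.11e-05). Ptprz1, a receptor phosphatase of radial glia, was at 64.3, 57.4 and 127 CPM in mutants 1, 2 and 3, against 245, 489 and 596 CPM in controls 1, 2 and 3. It fell by 2.05 ± 0.11 on the log2 scale (edgeR adjusted p = 0.000108, and 0.0798 without the library type term). The markers thus went both ways while Gja1 was higher. Without the library type term 3 were called higher and 1 lower. The summed level of the list was 228 to 276 CPM in the mutants and 483 to 718 CPM in the controls. Ptprz1 was the largest part of each control sum, so the difference between these sums largely restates that gene.

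Of 10 astrocyte markers, 9 were tested, 3 were called higher and none lower, where 7.92% of all tested genes were called higher. The 3 called were Slc4a4, a bicarbonate transporter, Aldoc and Aldh1l1. The list summed to 185 to 241 CPM in the mutants and 146 to 165 CPM in the controls. Glul, which was not called, was the largest part of each sum, at 171, 120 and 105 CPM in mutants 1, 2 and 3. In controls 1, 2 and 3 it was at 119, 85.2 and 80.9 CPM. Slc1a2 followed library type, at 0.636 to 1.95 CPM in fixed-length and 41.1 to 59.1 CPM in estimated-length libraries. Slc4a4 was at 30.5, 27.3 and 61.7 CPM in mutants 1, 2 and 3, against 7.31, 7.07 and 11.8 CPM in controls 1, 2 and 3 (2.36 ± 0.24, edgeR adjusted p = 0.00122). Aldh1l1 stayed low, at 0.367, 0.374 and 0.283 CPM in the mutants, against 0.0318, 0.0298 and 0.0948 CPM in the controls, and Aqp4 stayed under 0.5 CPM in every library. Without the library type term no astrocyte marker was called, 2 were called higher without mutant 3 and 1 without control 1.

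Most intermediate progenitor and cell cycle genes were called higher with the library type term, where 7.92% of all tested genes were. In the progenitor list 4 of 5 were, all but Insm1, among them Neurog2 (1.97 ± 0.11, edgeR adjusted p = 0.000123), and the list summed to 429 to 562 CPM in the mutants and 189 to 275 CPM in the controls. The 4 calls were 1 without the library type term and 2 without control 1 or within the estimated-length libraries. In the cell cycle list 4 of 6 were called higher and Cdk1 and Pcna were not (log2 fold changes 0.88 and -0.25), and Mki67 was at 5.67, 5.18 and 9.90 CPM in mutants 1, 2 and 3, against 2.45, 4.06 and 4.10 CPM in controls 1, 2 and 3. The cell cycle sums overlapped, at 63.6 to 109 CPM in the mutants and 52.1 to 107 CPM in the controls. Pcna was the largest part of each sum, at 82.1, 67.8 and 36.9 CPM in mutants 1, 2 and 3. In controls 1, 2 and 3 it was at 95.6, 41.4 and 39.9 CPM, so the overlap of these sums largely restates that gene. The 4 cell cycle calls were 0 without the library type term or without mutant 3, 2 without mutant 1 and 1 without control 1, control 2 or control 3. The part of progenitors or glia in the Gja1 difference was not tested.

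Markers of neurons stayed abundant in both genotypes. The shares called over all tested genes, 7.92% higher and 7.01% lower, stand beside the counts that follow. The 8 pan-neuronal genes summed to 4195 to 6551 CPM in the mutants and 5014 to 7463 CPM in the controls, with 3 called higher and 2 lower, and none called without the library type term. Without control 1 the counts were 1 and 1. The 8 genes of cortical glutamatergic neurons summed to 2250 to 2912 CPM in the mutants and 3769 to 4185 CPM in the controls, with 1 called higher and 6 lower, against 0 higher and 2 lower without the library type term. Markers of most other cell types that use connexins were scarce. Meningeal fibroblast markers summed to 1.18 to 1.70 CPM in the mutants and 0.70 to 1.90 CPM in the controls, with none called. Endothelial markers summed to 1.35 to 4.39 CPM in the mutants and 0.795 to 1.75 CPM in the controls, with Kdr called higher, a call lost without that term and without mutant 3. Mural markers summed to 1.70 to 1.98 CPM in the mutants and 1.05 to 3.51 CPM in the controls, and microglia markers to 1.06 to 3.99 CPM and 2.10 to 3.34 CPM, with none called in either list. Sums were 0.888 to 4.96 CPM in mutants and 0.922 to 5.40 CPM in controls for erythroid, 3.34 to 4.82 CPM and 3.05 to 4.29 CPM for choroid plexus and ependyma, and 2.01 to 2.79 CPM and 0.604 to 2.58 CPM for interneuron markers, of which Dlx5 was called higher, a call lost without that term and without control 1, control 3 or mutant 1. In the oligodendrocyte lineage list 3 of 7 were called higher (Pdgfra, Mbp and Cspg4), with sums of 41.0 to 58.2 CPM in the mutants and 28.0 to 34.6 CPM in the controls, while Sox10 had no read in any library. The 3 calls were 0 without the library type term, control 3 or mutant 3, and 1 without control 1, control 2 or mutant 1.

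**Figure D5:**
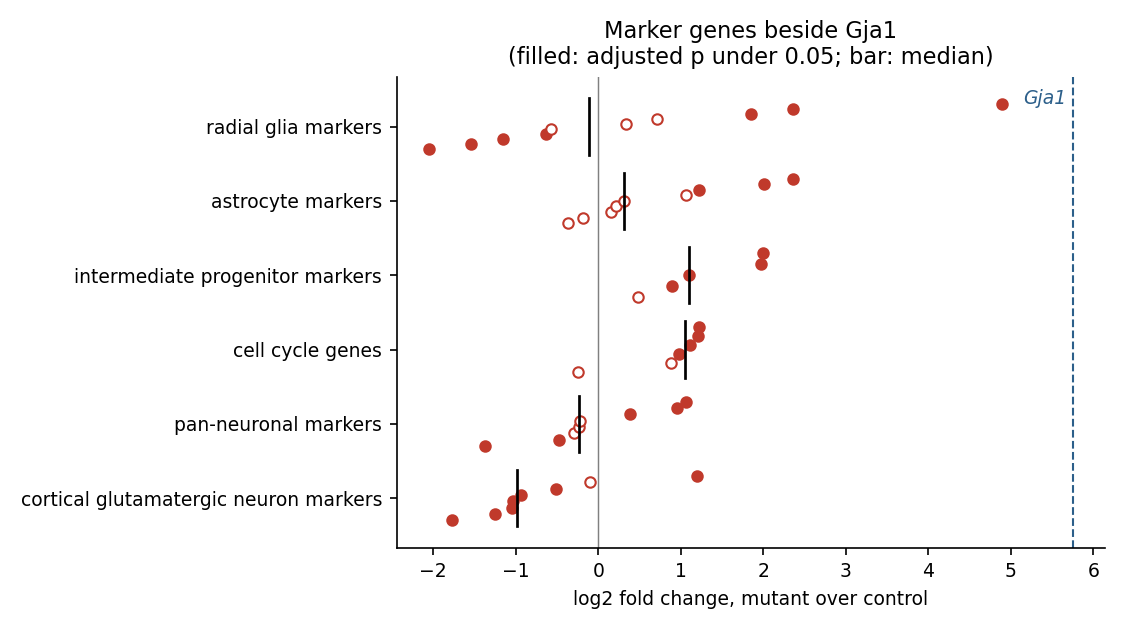
Log2 fold changes, mutant over control, of the tested genes in 6 marker lists (filled circles are called at adjusted p under 0.05, black bars are list medians), with the value of Gja1, 5.75, as a dashed line. Radial glia markers lie on both sides of 0, and no marker lies as far to the right as Gja1.

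The genes whose levels followed Gja1 most closely over the 6 libraries were sought among 11689 other genes with a mean of at least 2 CPM, by Pearson correlation of log2(CPM + 0.5). Among the 5 highest were Arhgap28 (r = 0.9993), a GTPase-activating protein, Plpp3 (0.999), a phosphatase of signalling lipids, Zcchc12 (0.9986), a zinc finger transcriptional coactivator, and Inppl1 (0.9984), a phosphoinositide phosphatase. The points share the same libraries, genotypes and library types, so such values are a description. Each of these genes shared the order of levels in which mutants lay above controls and control 1 above the other controls. They differed in size. Zcchc12 was at 115, 97.5 and 75.4 CPM in mutants 1, 2 and 3, against 3.62, 2.53 and 2.44 CPM in controls 1, 2 and 3. Plpp3 was at 85.2, 82.5 and 75.0 CPM in mutants 1, 2 and 3, against 13.4, 9.71 and 9.81 CPM in controls 1, 2 and 3. Arhgap28 was at 5.10, 4.81 and 4.27 CPM in mutants 1, 2 and 3, against 1.53, 1.27 and 1.28 CPM in controls 1, 2 and 3.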

How the data were processed

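Libraries were made with a stranded kit for total RNA, per the labels. FastQC, kallisto and the build mm9 are named in the submitters' processing notes, with versions not given in the sources used here. The deposited estimated counts are reads that the authors assigned to transcripts, without normalization, and the deposited TPM values are the authors' scaling of these by effective length and total. Transcript lengths and effective lengths, in bases, were deposited beside them. Of 97251 transcripts, 84637 (87.0%) matched GENCODE vM21, used for names only; the others took 6.85% to 8.58% of counts and were left out. The sums of estimated counts over the transcripts of each of 34289 genes were rounded to whole numbers. edgeR 4.0.16 (R 4.3.3) was run with TMM, filterByExpr, a prior count of 2, a term for library type and the quasi-likelihood test, adjusted over 16985 genes (threshold 0.05). The biological coefficient of variation was 0.186 with the term and 0.701 without it; the labels do not name these library types, which come from the deposited lengths. Standard errors are the log2 fold change divided by the root of the F statistic. DESeq2 1.42.0, other scalings, other filters, fits without the term and fits with a library left out served as alternatives. The script was tested on simulated data. Named genes were the members, other family genes with at least 0.5 CPM in a genotype, up to 3 called genes with the smallest p per list (or the most abundant), the 5 most like Gja1, and Zbtb18; Aqp4 and some list members are named beside them. Some of them are not reported here. The members and lists were chosen with earlier results of these data known.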

Additional observations from a re-analysis of the deposited data

Results flagged for a closer look

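The genotype effect on Zbtb18 itself differed between library types: its log2 fold change was smaller in size by 3.75 in the estimated-length than in the fixed-length libraries (edgeR interaction test, adjusted p = 0.00963). Mutants 1 and 2 were at 46.7 and 45.7 CPM, against 1902 CPM in control 1, and mutant 3 was at 538 CPM, against 1587 and 1697 CPM in controls 2 and 3. Mutant 3 is the only estimated-length mutant and control 1 the only fixed-length control. A difference by library type therefore cannot be told apart from a difference of these single libraries. Gja1 was 71.2-fold above its controls in mutant 3, and 46.6-fold and 38.0-fold in mutants 1 and 2.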

How the results depend on the processing

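The count of 2537 called genes (1346 higher and 1191 lower in the mutants) fell to 400 without the library type term (270 higher and 130 lower), was 1606 within fixed-length and 1345 within estimated-length libraries, 4029 with DESeq2, and 1294 to 3034 with a library left out; the term lowers the spread that genotypes are judged against, and the cause of the other changes was not tested. The interaction count was 26 in both scalings. Gja1 was between 5.38 and 6.10 on the log2 scale in all 14 alternatives. Sign changes concerned genes that were not called. Gjc1 was at -0.0078 with RLE, -0.024 within fixed-length libraries, -0.0079 with DESeq2 and -0.024 to 0.089 with a library left out. Panx2 was at -0.010 within estimated-length libraries. Gja6 was at -0.56 and Trem2 at -0.32 without the term. Trem2 was at -0.10 within fixed-length libraries and -0.10 to 0.48 with a library left out. Dcn was at -1.21 within estimated-length libraries, -0.043 with DESeq2 and -1.20 to 1.23 with a library left out. Rgs5 was at 0.00092 within fixed-length libraries and -1.44 to 0.0015 with a library left out. Of 47 named genes, the number with the same direction and the same side of the threshold was 46 with RLE, 46 without normalization factors, 47 without a count filter, 47 with an offset for effective length, and 20 without the library type term. The list counts were also taken without mutant 3, a choice made after seeing the data: no channel, partner, endothelial or oligodendrocyte lineage gene was then called, and the higher and lower calls were 2 and 1 for purinergic, 3 and 3 for radial glia, 4 and 0 for intermediate progenitor, 1 and 0 for mural and for interneuron, 2 and 1 for pan-neuronal, and 1 and 5 for cortical glutamatergic genes. With at most 2 reads per library, no difference in Gjb2 or Gjb6 was detectable at this depth. No paired analysis was possible because the sample titles carry no number that both genotypes share; the numbers 1 to 3 used here follow the order of deposit within a genotype and tie no mutant library to a control library.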
